A study of Mus musculus with 12 samples.

Results

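The ribosomal protein genes were taken by symbol: Rpl or Rps with a number and at most 1 letter or the ending l1, together with Rplp0, Rplp1, Rplp2 and Rpsa. S6 kinase genes and pseudogene symbols were left out. The rule found 61 genes with 91 probes among 19057 named genes and 45281 probes. Of these genes 34 encode proteins of the large subunit, 24 of the small subunit and 3 of the stalk, and 6 of them are paralogs of another ribosomal protein gene (Rpl22l1, Rps27l, Rpl7l1, Rpl3l, Rpl39l and Rps4l). Rps27, Rpl7 and Rpl10 are not analysed here.

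Total RNA was hybridized to 12 bead arrays (Illumina Mouse WG-6 v2.0), with 3 arrays in each of 4 groups. The groups were S42L cells with DHT, wild-type cells with DHT, S42L cells with testosterone and wild-type cells with testosterone, each androgen at 100 nM for 24 h. All were PKSV-PCT cells, a proximal tubule line from mice in which the simian virus large T antigen immortalizes the tubule. All carried a human cDNA of SHBG, the sex hormone-binding globulin that transports steroids in plasma, driven by the promoter of the pRC/CMV vector. It was of wild-type sequence or held the S42L mutation, for which the labels give no detectable binding of steroid. Both lines were limiting dilution clones chosen by the SHBG they secreted, and no separate clones of a variant are labelled, so variant and clone cannot be told apart. The medium held insulin, dexamethasone, triiodothyronine and EGF, the labels also give 3 days without steroid whose place relative to the hormone is uncertain, and there was no group without androgen. Whether replicates came from separate cultures is not labelled, so each p-value below reflects the spread of these samples alone, and that spread may be technical. The DHT arrays shared 1 chip and the testosterone arrays another, so androgen and chip cannot be told apart. S42L arrays held the upper and wild-type arrays the lower positions of both chips, so variant and position cannot be told apart either.

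The ribosome's small subunit reads the messenger RNA, its large subunit joins amino acids, and the stalk of acidic proteins calls in the elongation factors. Ribosomal protein messages are among the most abundant of any dividing cell, and most begin with a run of pyrimidines, the 5′ oligopyrimidine start, through which growth signals control their translation together. Rpl22 encodes a large subunit protein on the ribosome's surface that is dispensable for protein synthesis in general and binds viral and cellular RNA hairpins, and Rpl22l1 encodes its close paralog. In mice, loss of Rpl22 is known to raise Rpl22l1.

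Arrays had a mean signal of 560.2 to 707.4 and a median signal of 116.5 to 139.8, and 17314 to 19204 probes were detected per array. Of 12 named proximal tubule markers 8 were detected on all 12 arrays, Lrp2, Aqp1 and Hnf4a among them, and Cubn, Slc34a1 and Slc22a6 on 0. The summed signal of these 12 markers was 12546 to 20525 on S42L arrays and 6774 to 9931 on wild-type arrays. Of the markers of other cell types, the leukocyte gene Ptprc was detected on 0 arrays, whereas the macrophage gene Csf1r was detected on all 12 and Coro1a on 8. Of the fibroblast markers Dcn was detected on all 12, Col1a1 on 8, Col1a2 on 1 and Pdgfra and Thy1 on 0, and of the 2 that were tested 1 was called higher in S42L cells. Of 8 tested proximal tubule markers 7 were called higher and 1 lower in S42L cells. Of 2 tested immune markers 2 were higher, of 3 epithelial ones 1 was higher, and the 1 endothelial one was lower. Of all genes 40.1% were called by their brightest probe. The summed signal of 5 fibroblast markers was 1982 to 2994 on S42L arrays and 663 to 744.4 on wild-type arrays, and that of 3 immune markers 899.8 to 1465 on S42L arrays and 618.6 to 820.1 on wild-type arrays. Their part in the differences below was not tested.

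The ribosomal protein genes stood close to 0 between the lines as a group. A probe was tested where its detection p was under 0.05 on at least 3 arrays, and was called at a limma p under 0.05 after Benjamini-Hochberg adjustment over all 19480 tested probes. Of the 91 ribosomal protein probes 80 were tested, for 55 genes, and 17 were called over both androgens (21.2% of the 80), against 37.8% of all tested probes. Among the 17 called probes 10 were higher and 7 lower in S42L cells, for 13 genes, against 18.6% and 19.2% of all tested probes. When arrays were instead given a common median, 11 were called (13.8%), 9 higher and 2 lower, against 34.2% of all tested probes. That scaling moved the median difference of all probes to 0.08 over both androgens and to 0.11 under testosterone. The median of the 80 ribosomal protein probes was then 0.02 and -0.003. Without that scaling the median log2 difference over both androgens, S42L minus wild-type, was 0.02 for the 80 probes and -0.02 for all tested probes. It was within 0.2 of 0 for 59 of the 80 probes (73.8%), against 47.4% of all tested probes. In this bulk RNA, fewer cells with a transcript and less of it per cell cannot be told apart.

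The 6 genes without a tested probe were Rpl17, Rpl39l, Rpl6, Rps20, Rps23 and Rps4l. In all 11 probes were not tested, of which 7 were detected on 0 arrays and 4 on 1 or 2. Of the tested probes 74 were detected on all 12 arrays. The median normalized log2 signal of the tested ribosomal protein probes was 13.79 to 13.89 over the 12 arrays. The mean raw signal exceeded 10000 for 44 of them, where the highest signal of any probe on an array was 38629 to 45541. Whether the brightest of these signals were compressed near the top of the scale was not tested.

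**Figure D1:**
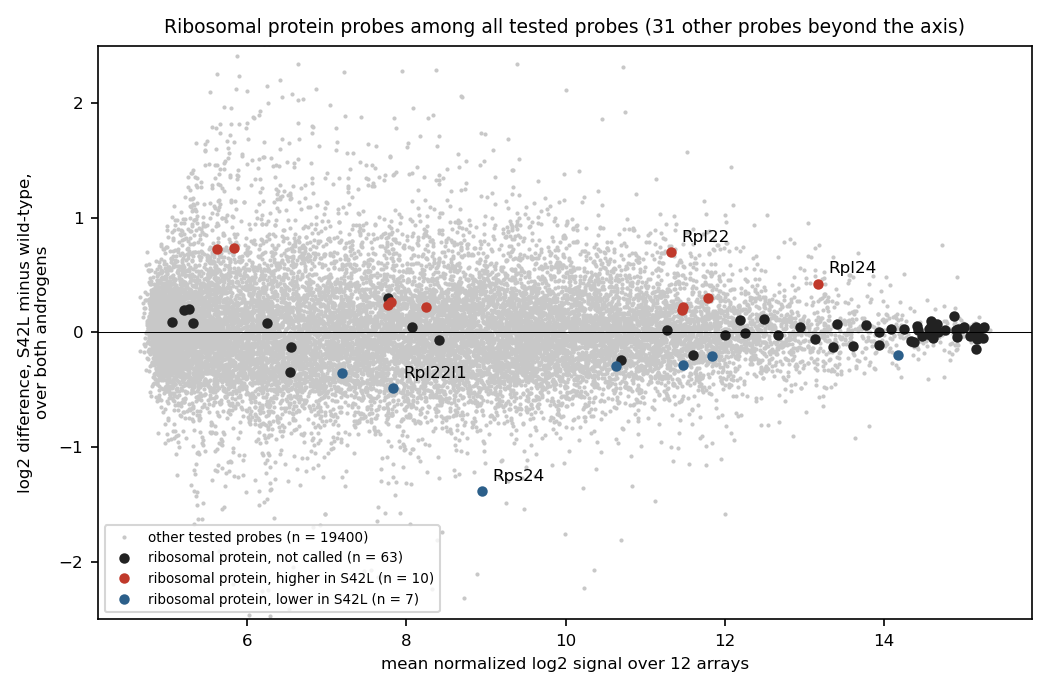
Log2 difference between S42L and wild-type cells over both androgens (vertical axis, log2 units) against mean normalized log2 signal over 12 arrays (horizontal axis) for every tested probe. Most ribosomal protein probes (large points) lie at the bright end close to 0, and the 10 called higher (red) and 7 called lower (blue) lie mostly at lower signal. 31 other probes lie beyond the vertical axis.

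The calls fell mostly on the dimmer probes. Of the 46 ribosomal protein probes with a mean log2 signal of at least 13, a limit chosen after the data were seen, 2 were called (4.35%), namely Rpl24 and Rps6. Among the 474 other probes as bright, 124 were called (26.2%). The differences of the 46 bright probes ran from -0.20 to 0.42, and the median half-width of their 95% confidence intervals was 0.145 log2 units. Of the 34 dimmer ribosomal protein probes 15 were called (44.1%), and of the 18926 other probes below that limit 7222 (38.2%). Reduced to the brightest probe of each gene, 6 of 55 genes were called, 3 higher (Rpl22, Rpl24 and Rpl21) and 3 lower (Rpl30, Rpl22l1 and Rps6), against 40.1% of 10335 genes so reduced. By role, 13 of 47 large subunit probes were called (27.7%), 10 higher and 3 lower, with several probes of Rpl21 and Rpl37 among the higher ones. Of 29 small subunit probes 4 were called (13.8%), all lower, Rps24 more than once. Of 4 stalk probes 0 were called, where the unadjusted p of 1 of them was under 0.05. Among all tested probes 37.8% were called, 18.6% higher and 19.2% lower. Under testosterone alone 1 small subunit probe was higher and 3 were lower.

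The starts of the genes on which the results turn are given here because pyrimidine runs at the start are known from ribosomal protein messages. Each line holds the 50 bases before and the 30 bases after an annotated gene start of RefSeq's GRCm38.p6, 5′ to 3′ on the gene's own strand, with the longest unbroken run of C and T in capitals. For the genes with 2 annotated starts, the one with the longer run is shown, and the other start has a longest run of 5 for Rpl22 and of 9 for Rps24. They come from chr4:152325676-152325755 (plus strand, the first of 2 annotated starts of Rpl22), chr3:28805458-28805537 (plus, Rpl22l1), chr16:55966225-55966304 (plus, Rpl24), chr14:24490703-24490782 (plus, the second of 2 annotated starts of Rps24) and chr4:86857338-86857417 (minus, Rps6).
Rpl22: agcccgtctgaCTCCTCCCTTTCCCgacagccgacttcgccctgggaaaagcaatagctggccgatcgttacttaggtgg
Rpl22l1: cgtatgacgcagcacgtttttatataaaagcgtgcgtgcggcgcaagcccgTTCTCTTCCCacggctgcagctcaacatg
Rpl24: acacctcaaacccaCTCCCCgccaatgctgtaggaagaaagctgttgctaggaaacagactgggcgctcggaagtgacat
Rps24: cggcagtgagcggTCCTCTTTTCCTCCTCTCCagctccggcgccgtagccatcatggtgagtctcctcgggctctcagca
Rps6: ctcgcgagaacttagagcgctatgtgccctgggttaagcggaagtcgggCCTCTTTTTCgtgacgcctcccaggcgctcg
Rpl22 had a run of 14 pyrimidines, Rpl22l1 of 10, Rps24 of 19 and Rps6 of 10, and Rpl24 had a longest run of 6, as did Rpl37, whose start is not shown. The runs of Rpl22, Rps24 and Rpl24 end before the annotated start. Of the 61 genes 50 matched the RefSeq promoter table. A run of at least 8 pyrimidines on the gene's strand lay in this window, which was chosen after the sequences were seen, for 32 of the 50 (64%) and for 9075 of 27025 genes in the table (33.6%). It was present in 6 of 10 matched genes with a probe called over both androgens and in 25 of 37 with tested probes and none called over both androgens. A C exactly at an annotated start followed by at least 4 more C or T on the gene's strand was found for 9 of the 50 (18%) and for 813 of the 27025 (3.01%), in 1 of the 10 genes with such a call and in 8 of the 37 with none. A match describes letters only and shows no site of control.

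Rpl22 had the highest difference of any gene's brightest probe among the ribosomal protein genes. Its probe read 11.49, 11.62 and 11.56 on the log2 scale in S42L cells with DHT and 10.89, 10.86 and 10.96 in wild-type cells with DHT. Under testosterone it read 11.71, 11.79 and 11.85 in S42L cells and 11.01, 11.13 and 10.98 in wild-type cells. All 6 S42L arrays lay above all 6 wild-type arrays. The log2 difference was 0.70 ± 0.07 (SE, 6 arrays against 6), or 1.62-fold, with a limma adjusted p of 5.75e-06 and a 95% confidence interval of 0.56 to 0.84. It was 0.66 ± 0.09 under DHT (adjusted p = 0.000369) and 0.75 ± 0.09 under testosterone (adjusted p = 0.000147). The difference between these, -0.09 ± 0.13, was not called (limma adjusted p = 1), with an interval of -0.37 to 0.19. Without any single array the difference over both androgens was 0.68 to 0.72.

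Rpl22l1 was lower in S42L cells, with less certainty. It read 8.12, 7.24 and 7.41 in S42L cells with DHT and 8.13, 7.98 and 7.92 in wild-type cells with DHT, and 7.98, 7.44 and 7.29 in S42L cells with testosterone and 8.02, 8.28 and 8.08 in wild-type cells with testosterone. Both S42L arrays numbered replicate 1 lay within the range of the 6 wild-type arrays, 7.92 to 8.28, and the other S42L arrays lay below it. The log2 difference was -0.49 ± 0.15 (limma adjusted p = 0.0253, 0.71-fold), with an interval of -0.82 to -0.15. Under DHT alone it was -0.42 (adjusted p = 0.198) and under testosterone alone -0.56 (adjusted p = 0.0855). The call ended with median scaling (-0.33, adjusted p = 0.112) and without any of 6 single arrays, namely S42L DHT replicates 2 (adjusted p = 0.0639) and 3 (0.0588), wild-type DHT replicate 1 (0.0552), S42L testosterone replicates 2 (0.0574) and 3 (0.0644) and wild-type testosterone replicate 2 (0.0537).

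**Figure D2:**
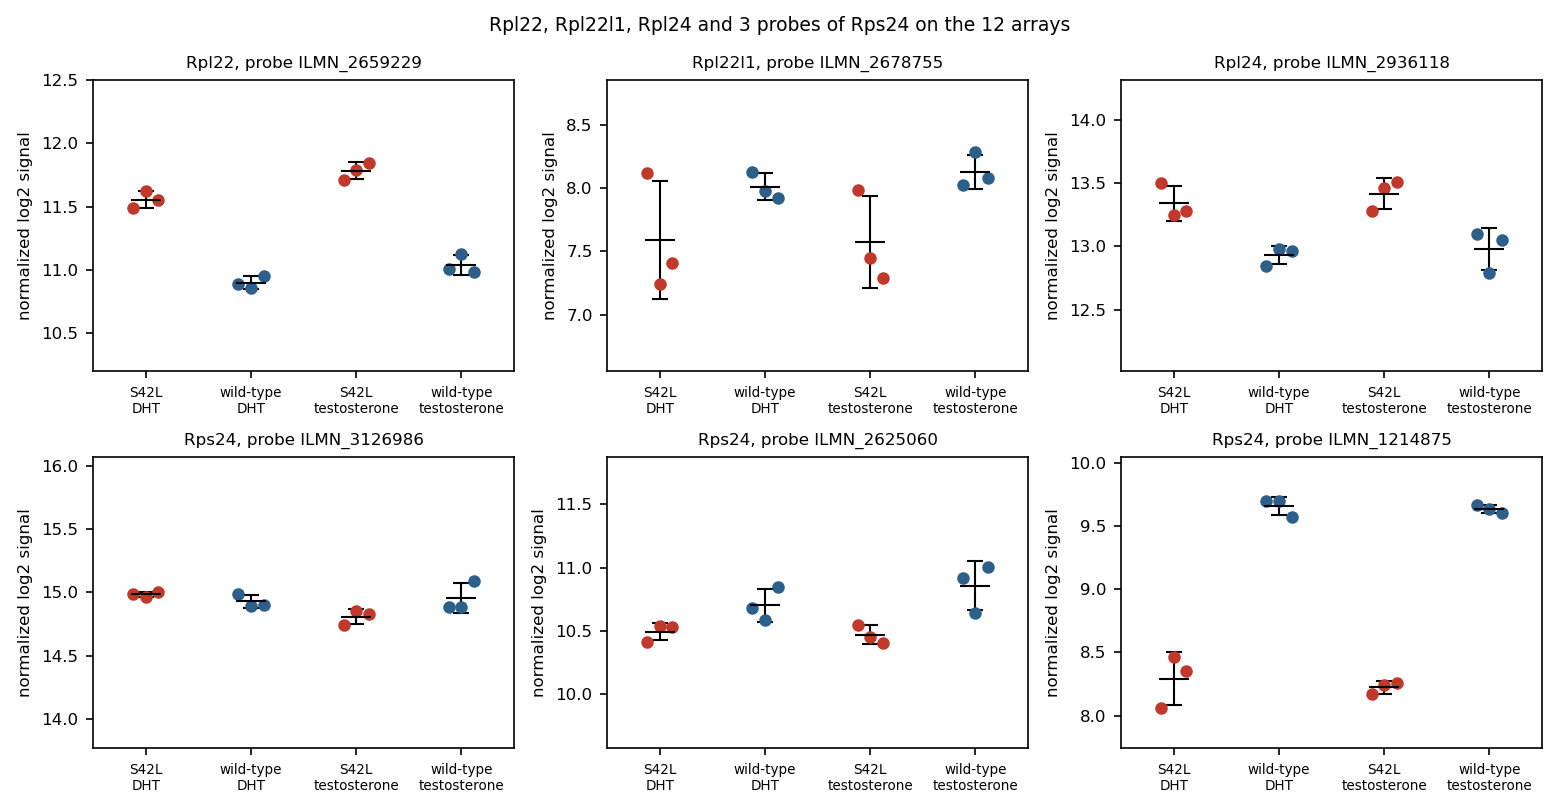
Normalized log2 signal (vertical axis, each panel spanning the same number of log2 units) of Rpl22, Rpl22l1, Rpl24 and 3 probes of Rps24 in the 4 groups (horizontal axis). Points are single arrays in the order of their replicate numbers, red for S42L and blue for wild-type, and lines give the mean and SD of 3 arrays. The lines separate for Rpl22, Rpl24 and Rps24 probe ILMN_1214875. They separate narrowly for Rps24 probe ILMN_2625060, at most 10.55 in S42L and at least 10.58 in wild-type cells. Rps24 probe ILMN_3126986 reads 14.74 to 15.00 in S42L and 14.88 to 15.09 in wild-type cells.

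Rpl24, of the large subunit at the bridge between subunits, was the brightest probe called higher. It read 13.50, 13.25 and 13.28 in S42L cells with DHT and 12.85, 12.98 and 12.97 in wild-type cells with DHT. Under testosterone the readings were 13.28, 13.46 and 13.51 in S42L cells and 13.10, 12.79 and 13.05 in wild-type cells. The 6 S42L arrays lay above the 6 wild-type arrays. The log2 difference was 0.42 ± 0.08 (limma adjusted p = 0.00158, 1.34-fold), and without any single array it was 0.38 to 0.46 and remained called. Rpl21, a large subunit protein, had 3 probes of raw signal 413.5, 335.1 and 326.7 that were all called, at 0.22 ± 0.08, 0.26 ± 0.08 and 0.23 ± 0.08 (adjusted p = 0.0439, 0.0199 and 0.0307). On each of them the lines overlapped. The first of these calls was lost in 11 of the 12 fits that left out 1 array, at adjusted p of 0.052 to 0.0902 (it was kept without wild-type testosterone replicate 3), and with no filter (0.065) or an intensity trend in the prior (0.0516), the second without S42L testosterone replicate 2 (adjusted p = 0.0576), and the third without S42L DHT replicate 1, wild-type DHT replicates 2 and 3, S42L testosterone replicates 2 and 3 or wild-type testosterone replicate 2 (0.057 to 0.0785).

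Several genes had probes that did not move together. In all 21 genes had more than 1 probe and 18 had more than 1 tested. Rps24, a small subunit protein whose message is spliced in several forms at its 3′ end, showed the widest split. Probe ILMN_1214875, which the platform annotation ties to a cDNA clone and not to a RefSeq transcript, read 8.06, 8.46 and 8.35 in S42L cells with DHT and 9.70, 9.69 and 9.57 in wild-type cells with DHT. Under testosterone it read 8.17, 8.25 and 8.26 in S42L cells and 9.67, 9.64 and 9.60 in wild-type cells. The lines were more than 1 log2 unit apart, with no overlap. The log2 difference was -1.39 ± 0.08 (limma adjusted p = 7.35e-08, 0.38-fold), and it was -1.36 under DHT and -1.41 under testosterone. Probe ILMN_2625060, annotated to another RefSeq transcript of Rps24, differed by -0.30 ± 0.08 (adjusted p = 0.013), a call that ended with median scaling (-0.24, adjusted p = 0.102). On it S42L arrays read 10.41 to 10.55 and wild-type arrays 10.58 to 11.01, without overlap. The bright probe ILMN_3126986 differed by -0.05 ± 0.07 (adjusted p = 0.636), with a range of 14.74 to 15.00 in S42L cells and of 14.88 to 15.09 in wild-type cells. Probe ILMN_2502673 was detected on 0 arrays. Which spliced forms these probes read was not tested.

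Rpl37, a zinc-binding protein of the large subunit, split by signal. Its bright probe ILMN_2696977 read 15.04 to 15.21 in S42L cells and 15.06 to 15.22 in wild-type cells, a difference of 0.03 ± 0.06 (limma adjusted p = 0.791). The dim probes ILMN_1223052 and ILMN_1236446, with mean raw signals of 167.5 and 159.5 and detection on 11 and 10 arrays, were higher in S42L cells at 0.74 ± 0.14 (adjusted p = 0.00106) and 0.73 ± 0.14 (adjusted p = 0.00121). On ILMN_1223052 S42L arrays read 6.06 to 6.52 and wild-type arrays 5.02 to 5.94. On ILMN_1236446 S42L arrays read 5.72 to 6.27 and wild-type arrays 4.90 to 5.60. All 3 probes are annotated to the same RefSeq transcript. Ribosomal protein genes have many processed pseudogenes and near-identical copies, and which copies a probe reads was not tested, so each value is that of a probe and is uncertain as that of a gene.

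Rpl30, a large subunit protein that in yeast binds its own message, was lower on its brighter probe ILMN_2878430. It read 11.38, 11.27 and 11.32 in S42L cells with DHT and 11.60, 11.57 and 11.65 in wild-type cells with DHT, and 11.24, 11.40 and 11.34 in S42L cells with testosterone and 11.66, 11.58 and 11.64 in wild-type cells with testosterone. All S42L arrays lay below all wild-type arrays, by -0.29 ± 0.06 in the fit (limma adjusted p = 0.0035). The other probe, ILMN_2878424, differed by 0.05 (adjusted p = 0.71), and the mean of both probes by -0.12 (adjusted p = 0.148). Rpl27a, of the large subunit, was higher on 1 of 4 tested probes, ILMN_2882059, at 0.30 ± 0.07 (adjusted p = 0.00356), with S42L arrays at 11.75 to 12.10 and wild-type arrays at 11.62 to 11.67. Its other tested probes differed by 0.10, -0.03 and 0.20 and were not called.

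Rps13, a small subunit protein, was lower on the dim probe ILMN_2482591, of mean raw signal 253.2, at -0.36 ± 0.08 (limma adjusted p = 0.00374). On the bright probe ILMN_2940017 it differed by -0.07 (adjusted p = 0.515). The dim probe read 7.20, 7.16 and 6.95 in S42L cells with DHT and 7.28, 7.29 and 7.15 in wild-type cells with DHT, and 6.78, 6.89 and 7.08 in S42L cells with testosterone and 7.40, 7.55 and 7.53 in wild-type cells with testosterone. The groups overlapped under DHT and did not under testosterone. Its difference was -0.14 under DHT (adjusted p = 0.426) and -0.58 under testosterone (adjusted p = 0.00302), and the test of the difference between these gave 0.44 with a limma p of 0.0172, or 1 after adjustment. Median scaling ended the call over both androgens (-0.18, adjusted p = 0.192) and under testosterone (-0.36, adjusted p = 0.085).

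Rps6, the small subunit protein that S6 kinases phosphorylate, had 1 bright probe, with a median of 14.08 and a highest value of 14.13 in S42L cells and a lowest value of 14.20 and a median of 14.26 in wild-type cells. The lines did not overlap, and the log2 difference was -0.20 ± 0.06 (limma adjusted p = 0.0268). The call ended with median scaling (-0.20, adjusted p = 0.1) and without wild-type DHT replicates 2 or 3 or S42L testosterone replicates 1 or 2 (adjusted p of 0.0648, 0.0585, 0.0563 and 0.0611). Rpl31, Rpl23 and Rpl29, all of the large subunit, each had 1 called probe of lower signal. These were Rpl31 ILMN_1221124 at 0.19 (adjusted p = 0.0374), Rpl23 ILMN_1238227 at 0.22 (adjusted p = 0.0406) and Rpl29 ILMN_2730005 at -0.21 (adjusted p = 0.0494). Their other tested probes differed by -0.01 and -0.00 for Rpl31, 0.08 and -0.00 for Rpl23 and -0.12 for Rpl29, and were not called. All 3 calls ended with median scaling (adjusted p = 0.0836, 0.108 and 0.203), and those of Rpl23 and Rpl29 with no filter (0.0584 and 0.0713). They were lost in 7, 9 and 10 of the 12 fits that left out 1 array, at adjusted p of 0.053 to 0.0922, 0.0527 to 0.0963 and 0.0587 to 0.122. Rpl31 kept its call without S42L DHT replicates 1 and 2, S42L testosterone replicate 1 and wild-type testosterone replicates 2 and 3. Rpl23 kept it without wild-type DHT replicate 2, S42L testosterone replicate 2 and wild-type testosterone replicate 3, and Rpl29 without S42L DHT replicate 1 and wild-type DHT replicate 3.

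**Figure D3:**
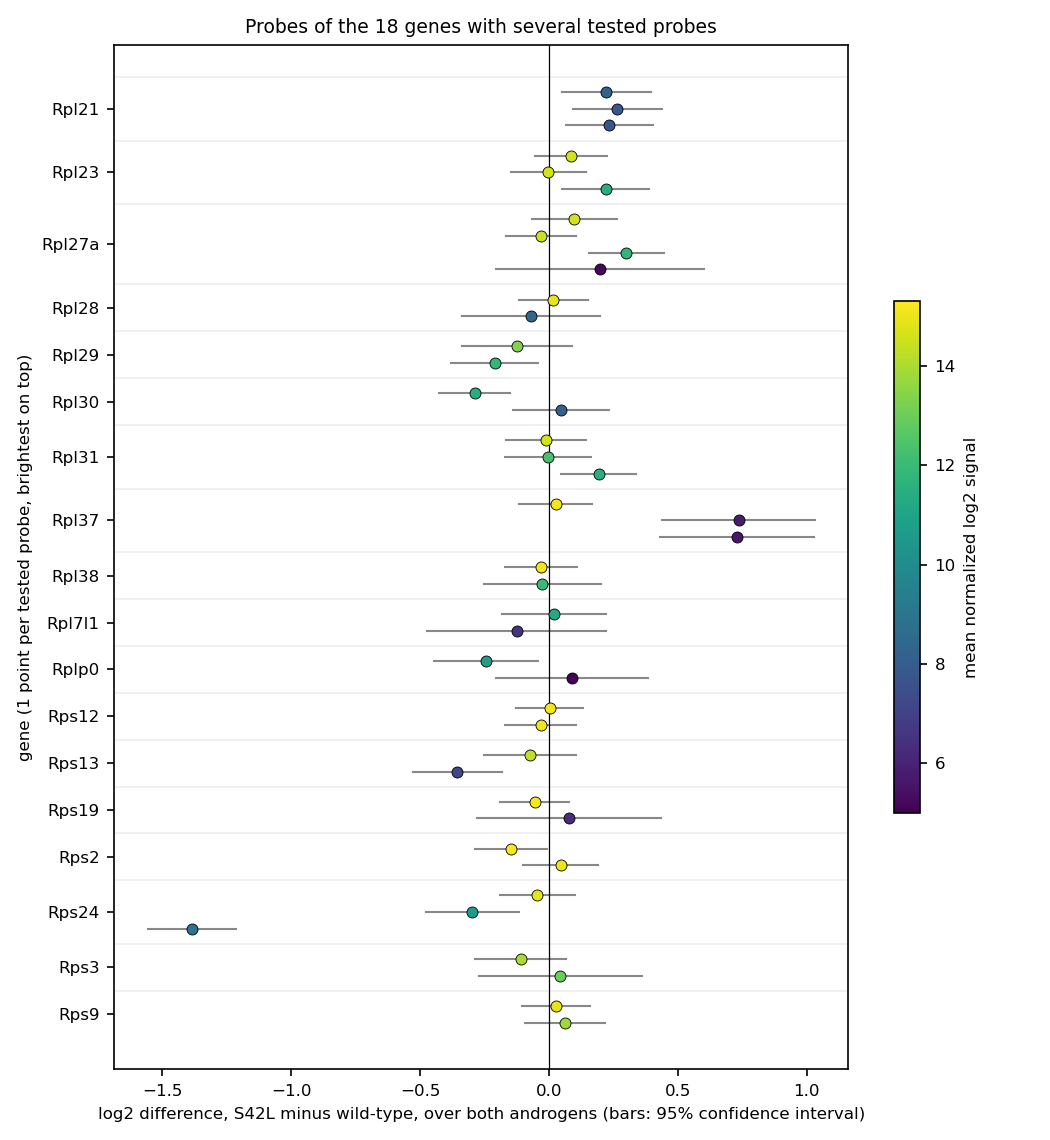
Log2 difference between S42L and wild-type cells over both androgens (horizontal axis, log2 units, bars the 95% confidence interval from limma) for each tested probe of the 18 ribosomal protein genes with more than 1 (vertical axis, brightest probe on top). Colour gives the mean normalized log2 signal. Rpl37 and Rps24 have bright probes near 0 and dimmer ones away from it, and the 3 probes of Rpl21 lie together.

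The other paralogs were not called. Rpl3l, the striated muscle paralog of Rpl3, differed by 0.30 ± 0.13 (limma adjusted p = 0.0829), with an interval of 0.02 to 0.57, and read 7.72 to 8.19 in S42L cells and 7.31 to 8.11 in wild-type cells. It passed with median scaling (0.46, adjusted p = 0.0164) and without wild-type testosterone replicate 3 (adjusted p = 0.00262). Rpl3, which lies at the peptidyl transferase centre, differed by -0.05, with an interval of -0.19 to 0.08. Rps27l, a p53-induced gene in human and mouse cells, differed by -0.09 (interval -0.27 to 0.09), and Rpl7l1 by 0.02 on its brighter probe (interval -0.18 to 0.22). Rpl39, a small protein of the exit tunnel, differed by 0.03 (interval -0.11 to 0.18).

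The stalk genes were not called. Rplp1 and Rplp2, which encode the acidic proteins, differed by 0.04 (interval -0.11 to 0.20) and 0.02 (interval -0.16 to 0.20). Rplp0, their anchor, differed by -0.25 ± 0.09 on its brighter probe (limma adjusted p = 0.0558), with S42L arrays at 10.41 to 10.72 and wild-type arrays at 10.65 to 11.13. Rplp1, with a mean raw signal of 39305, Rpl9 (38749) and Rps4x (37182) were the probes of highest signal. Rpl9 differed by -0.05 and Rps4x by -0.01. Rpsa (147), Rpl14 (147) and Rps15a (204) were the genes whose brightest tested probe had the lowest signal. Rpl14 differed by 0.08 (interval -0.25 to 0.42) and Rps15a by -0.35 (interval -0.75 to 0.05), neither of them called. Without wild-type testosterone replicate 2 Rps15a was called at -0.50 (limma adjusted p = 0.0198), and without any single array it stood at -0.50 to -0.19.

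Of the 55 tested genes 41 had no probe called in any of the 6 contrasts, and the same share over all genes was not computed. By the brightest probe over both androgens, 6 of the 55 were called, against 40.1% of 10335 genes. The 21 of the large subunit were Rpl3, Rpl3l, Rpl4, Rpl7a, Rpl7l1, Rpl9, Rpl10a, Rpl12, Rpl13a, Rpl14, Rpl19, Rpl26, Rpl27, Rpl28, Rpl32, Rpl34, Rpl35, Rpl36a, Rpl38, Rpl39 and Rpl41. Their differences over both androgens ran from -0.20 (Rpl4) to 0.30 (Rpl3l). The 17 of the small subunit were Rps2, Rps3, Rps4x, Rps7, Rps9, Rps10, Rps12, Rps14, Rps15, Rps15a, Rps16, Rps19, Rps21, Rps25, Rps26, Rps27l and Rps29, with differences from -0.35 (Rps15a) to 0.08 (Rps19). Over the 50 tested probes of the 41 genes, 38 had a 95% confidence interval that lay wholly within 0.3 log2 units of 0. The 41 genes were picked on these same values, so small differences among them follow in part from that choice. The share among uncalled probes of other genes was not computed.

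Under each androgen alone the arrays were 3 against 3 and the counts smaller. Under DHT 8 of the 80 probes were called (10%), 6 higher and 2 lower, against 22.9% of all tested probes, of which 11.7% were higher and 11.3% lower. Under testosterone 9 were called (11.2%), 5 higher and 4 lower, against 23.8%, of which 12.3% were higher and 11.5% lower. Rpl22 and Rps24 ILMN_1214875 were called under both androgens here, in every alternative run for single androgens and in every fit without 1 array. Rpl24, Rpl30 and both dim probes of Rpl37 were also called under both. Rpl24 stood at 0.41 under DHT (limma adjusted p = 0.0247) and 0.44 under testosterone (0.0181), and Rpl30 at -0.28 (0.0418) and -0.30 (0.0316), but median scaling ended these calls at adjusted p of 0.0794 and 0.0586 for Rpl24 and 0.168 and 0.229 for Rpl30. Rpl27a ILMN_2882059 was called under DHT at 0.40 (adjusted p = 0.00949, and 0.0655 with median scaling), as was Rpl21 ILMN_1222250 at 0.38 (0.0277).

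Rpsa, the laminin receptor protein of the small subunit, was called under testosterone and not under DHT, on a probe detected on 9 arrays. It read 5.13, 5.01 and 4.78 in S42L cells with DHT and 5.28, 5.34 and 4.87 in wild-type cells with DHT, and 5.89, 5.58 and 5.83 in S42L cells with testosterone and 4.72, 5.35 and 5.43 in wild-type cells with testosterone. The S42L arrays with testosterone lay above the other groups. The difference was 0.60 ± 0.19 under testosterone (limma adjusted p = 0.0398) and -0.19 under DHT (adjusted p = 0.522), and the test of the difference between these gave -0.79 with a p of 0.0128, or 1 after adjustment. The call ended without background correction (adjusted p = 0.0941), with the authors' processed values (0.0544), with no filter (0.0727) and with an intensity trend in the prior (0.0526). It also ended without S42L testosterone replicates 1 (0.12) and 3 (0.108), wild-type testosterone replicate 1 (0.142) and S42L DHT replicate 2 (0.0523).

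Leaving out single arrays ended further calls under 1 androgen, as follows. For Rpl24 the call under DHT ended without S42L DHT replicate 1 (limma adjusted p = 0.0854) or wild-type DHT replicates 1 (0.0865), 2 (0.0534) or 3 (0.056). Its call under testosterone ended without S42L testosterone replicates 2 (0.0667) or 3 (0.0726) or wild-type testosterone replicate 2 (0.0555). For Rpl30 the call under DHT was kept only without S42L DHT replicate 1 or wild-type testosterone replicates 2 or 3, and adjusted p was 0.0513 to 0.129 without any of the others. Its call under testosterone ended without S42L testosterone replicates 1 (0.12), 2 (0.0542) or 3 (0.0752) or wild-type testosterone replicate 1 (0.0813). For Rpl21 ILMN_1222250 the call under DHT ended without any S42L DHT replicate (0.0702, 0.0723 and 0.0523 without replicates 1, 2 and 3) or wild-type DHT replicates 1 (0.0937) or 2 (0.0777).

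Rpl37 ILMN_1223052 lost its call under DHT without S42L DHT replicate 1 (limma adjusted p = 0.0537), and under testosterone without S42L testosterone replicates 1 (0.0551) or 2 (0.0549) or wild-type testosterone replicate 1 (0.0684). Rpl37 ILMN_1236446 lost its call under DHT with no background correction (0.0508), without S42L DHT replicates 2 (0.0643) or 3 (0.0719) or wild-type DHT replicates 1 (0.0622) or 3 (0.0908), and under testosterone without S42L testosterone replicate 3 (0.0616) or wild-type testosterone replicate 2 (0.0511). Rps24 ILMN_2625060, called under testosterone at -0.39 (adjusted p = 0.0308), lost the call with median scaling (0.2) and without S42L testosterone replicates 2 (0.0881) or 3 (0.0984) or wild-type testosterone replicates 1 (0.0889) or 3 (0.0783). The count over both androgens was 17, and it was 10 without S42L testosterone replicate 2 and 11 without S42L testosterone replicate 3. Of all tested probes 33.1% and 33.9% were then called, in place of 37.8%. Under DHT the count of 8 became 4 without wild-type DHT replicate 1 and 5 without S42L DHT replicates 2 or 3 or wild-type DHT replicates 2 or 3. In those fits 16.7% to 18.9% of all tested probes were called, in place of 22.9%. Under testosterone the count of 9 became 5 without S42L testosterone replicate 2, 4 without S42L testosterone replicate 3 and 5 without wild-type testosterone replicate 1. All tested probes were then called at 15.9%, 17.2% and 19.6%, in place of 23.8%.

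**Figure D4:**
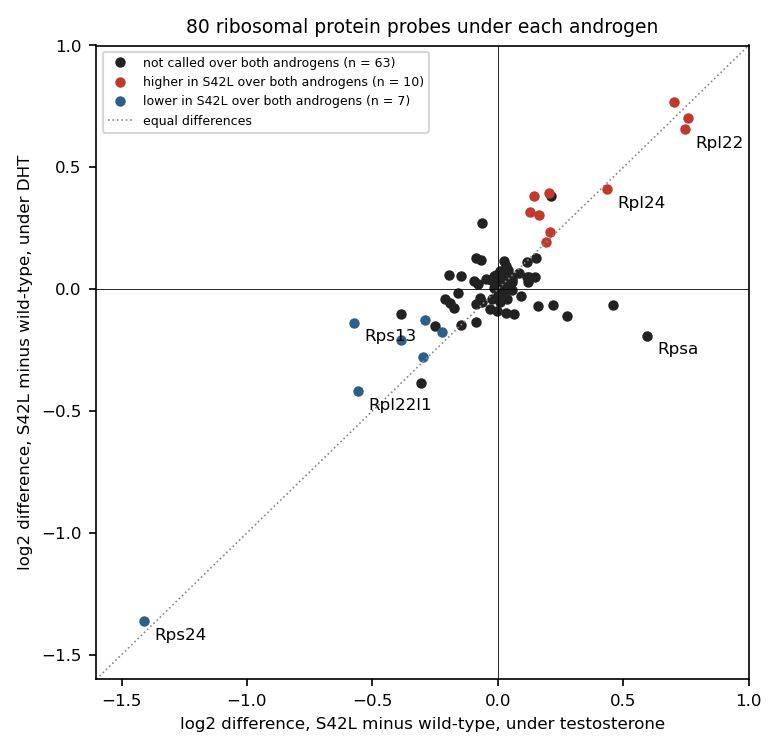
Log2 difference between S42L and wild-type cells under DHT (vertical axis, log2 units) against that under testosterone (horizontal axis, log2 units) for the 80 tested ribosomal protein probes. Colours mark the 10 probes called higher (red) and the 7 called lower (blue) over both androgens, and the dotted line marks equal differences. Rpl22, Rpl24 and the lowest Rps24 probe lie near that line, and Rps13 and Rpsa away from it, with neither called in the test of the difference.

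Between the androgens 0 ribosomal protein probes were called. DHT against testosterone gave 0 of 80 probes called by limma in S42L cells, with 3 at an unadjusted p under 0.05 and a lowest adjusted p of 0.0976, against 0.267% of all tested probes. In wild-type cells it gave 0, with 3 at an unadjusted p under 0.05 and a lowest adjusted p of 0.37, against 0.0719% of all tested probes. The interaction of variant and androgen gave 0, with 2 at an unadjusted p under 0.05, against 0.00513%. The probe with the lowest p in S42L cells was that of Rpsa, at -0.79 ± 0.19, which median scaling called (-0.90, adjusted p = 0.035). Rpl22 stood at -0.23 ± 0.09 in S42L cells (adjusted p = 0.324) and -0.14 ± 0.09 in wild-type cells (adjusted p = 0.588), with intervals of -0.43 to -0.03 and of -0.34 to 0.06. The median half-width of the 95% confidence interval over all tested probes was 0.316 log2 units in these contrasts and 0.446 in the interaction.

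Genes that build ribosomes were mostly lower in S42L cells over both androgens, and fewer of them were called with median scaling. Of 35 tested ribosome assembly genes, 22 were lower, 3 higher and 10 not called in S42L cells over both androgens, with a median log2 difference of -0.34, against 40.1% of genes called by their brightest probe, 20.6% higher and 19.5% lower, and a median of -0.02 over all tested probes. Gnl3, encoding the nucleolar GTP-binding protein nucleostemin, was lower at -1.03 ± 0.08 (limma adjusted p = 8.91e-07). Heatr1, of the small subunit processome, stood at -0.71 (adjusted p = 3.16e-05), Rrp9, of the U3 particle, at -0.67 (2.92e-05) and Nop56, of the box C/D particles, at -0.56 (7.48e-05). The higher members were Pes1, Ncl and Nop10. Under DHT 17 of the 35 were lower and 1 higher, against 11.8% of genes called lower, and under testosterone 11 were lower and 1 higher, against 11.8%. With median scaling 14 were lower and 2 higher over both androgens, with a list median of -0.24 against 0.08 over all tested probes. Under DHT 8 were then lower and 0 higher, with a list median of -0.34 against 0.05. Under testosterone 4 were lower and 1 higher, at -0.18 against 0.11. Without that scaling the list medians under DHT and testosterone were -0.33 and -0.27, against -0.02 and -0.01. That scaling called 34.2%, 18.6% and 21.5% of all tested probes in these contrasts, counting both directions. Without any single array 19 to 23 were lower over both androgens. Beside these counts, the brightest probes of the ribosomal proteins had 3 lower of 55 and a median of 0.02. The 2 lists were not matched for signal. Among probes of other genes, 26.2% were called at a mean log2 signal of at least 13 and 38.2% below it. The difference between the 2 lists was not tested.

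**Figure D5:**
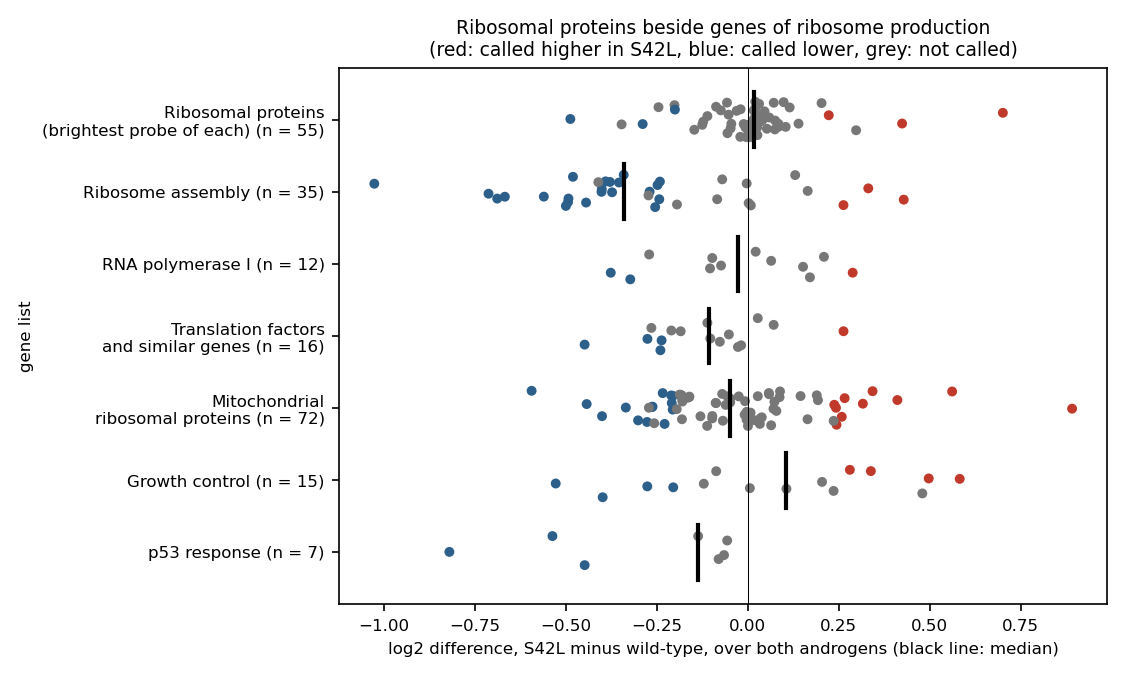
Log2 difference between S42L and wild-type cells over both androgens (horizontal axis, log2 units) for the brightest tested probe of each gene in 7 lists (vertical axis), with red for called higher, blue for called lower, grey for not called and a black line at the list median. The ribosomal proteins gather near 0 with a median of 0.02, and 22 of 35 ribosome assembly genes are called lower with a list median of -0.34. The lists were not matched for signal.

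The remaining lists were mixed, and their counts stand beside 40.1% of genes called by their brightest probe, 20.6% higher and 19.5% lower. Of 12 RNA polymerase I genes, which transcribe the ribosomal RNA, 2 were lower, Polr1b (-0.38, limma adjusted p = 0.000947) and Taf1d (-0.32, 0.0118), and 1 higher, Rrn3 (0.29, 0.021). Of 16 translation factors and other genes with pyrimidine starts, 4 were lower and 1 higher. Tpt1, a growth-related calcium-binding protein, stood at -0.45 (adjusted p = 0.00579). Its probe was dim, with means of 5.61 in S42L and 6.06 in wild-type cells. The difference of Tpt1 was -0.15 under DHT and -0.75 under testosterone. The elongation factor subunits Eef1d and Eef1g stood at -0.28 (0.00658) and -0.24 (0.0101), and Hnrnpa1, a splicing regulator, at 0.26 (0.0421). The list medians were -0.03 and -0.11.

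Of 15 growth control genes 4 were higher and 4 lower. Mtor, the kinase that drives translation of pyrimidine-start messages, was higher at 0.34 (limma adjusted p = 0.00375), as was Akt1s1, an inhibitory partner of it, at 0.50 (0.00092). Larp1, which binds those starts, was lower at -0.40 (0.00339), and Ddit4, an inhibitor of mTOR signalling, at -0.53 (0.000426). Tsc1 and Tsc2 were also higher, at 0.58 (0.00465) and 0.28 (0.0273), and Eif4ebp1 and Myc lower, at -0.28 (0.018) and -0.20 (0.0425). Of 7 genes of the p53 response, which unassembled ribosomal proteins can set off, 3 were lower and 0 higher. The lower ones were Gadd45a (-0.82, adjusted p = 5.16e-06), Mdm2 (-0.54, 9.39e-05) and Ccng1 (-0.45, 0.000596). Cdkn1a (-0.07, 0.561), Bbc3, Sesn1 and Mdm4 were not called. Whether p53 was active in these cells, which large T antigen immortalizes, was not tested. Of 72 mitochondrial ribosomal protein genes 10 were higher and 14 lower (33.3%, median -0.05), led by Mrps6 at 0.89 (adjusted p = 9.74e-06) and Mrps16 at -0.59 (2.81e-05). In the androgen contrasts 0 genes of these lists were called in S42L cells. In wild-type cells 1 was called, lower with DHT, from the list of translation factors and other genes with pyrimidine starts.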

How the data were processed

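Biotinylated cRNA from total RNA was hybridized to the arrays, per the labels' protocols. The authors deposited an average signal intensity for every probe on every array, linear and, as its values show, with no background subtraction or normalization between arrays. Beside each intensity they deposited a detection p-value, per the file headers. The submitters' processing notes name BeadStudio, whose version is not given in the sources used here. The authors' processed intensity values, a second deposited table, served as 1 alternative. Its columns rank-correlated at 1 with the signals of their own arrays and at 0.865 or less with other arrays, and had medians of 6.8 to 6.9 and a minimum of -30.1. These values are therefore linear and background-subtracted, and the exact steps are not given in the sources used here. Their nearly equal medians, where the signals had medians of 116.5 to 139.8, point to a normalization between arrays as well. This alternative is thus not free of such a step.

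Signals were processed with neqc of limma 3.58.1 in R 4.3.3, which takes the background from the detection p-values, adds an offset (16 here), normalizes by quantiles and returns log2 values. Quantile normalization removes a shift shared by most transcripts, so scaling to the median was an alternative. The fit, by lmFit and eBayes of limma, gave each group a coefficient (8 residual degrees of freedom, 4.32 from the prior). The 6 two-sided contrasts were S42L minus wild-type under DHT, under testosterone and as the mean of both, DHT minus testosterone within each of the lines, and their interaction. Benjamini-Hochberg adjustment ran over all 19480 tested probes. Precision is limited by the number of arrays: the median half-width of the 95% confidence interval was 0.223 log2 units over both androgens. Replicates correlated at 0.9825 to 0.9951, and 0 pairs of arrays were identical. The steps were tested on simulated data.

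Genes were named through the platform annotation (1 symbol for 34885 probes, several for 18, none here for 10378). The members, gene lists and rules were chosen with earlier results of these data known. Named members were those with a call in any contrast, the paralog pairs, the 3 of highest and 3 of lowest signal and those whose probes disagreed, and from each list at most 4 called genes by smallest adjusted p. Pes1, Ncl, Nop10, Tsc1, Tsc2, Eif4ebp1, Myc and the uncalled genes of the p53 response were named after their values were seen. A gene stands for its probe of highest mean signal, and no probe's level was set against another's to compare genes. Titles gave the groups, and array names gave chip and position. Alternatives were other scaling, background, offset and filter settings, the authors' values, a replicate block, a chip block, an intensity trend, a mean over the probes of each gene, and leaving out each array.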

Additional observations from a re-analysis of the deposited data

How the results depend on the processing

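Replicate numbers are shared between groups, but same-numbered arrays deviated together little (correlations of -0.0469 to 0.121 over 18 pairs, 1 of them over 0.1, and 3 of 12 arrays correlated best with their own number), so the numbers were not taken to pair the arrays. With a replicate block the called ribosomal protein probes numbered 13 over both androgens in place of 17, 7 under DHT in place of 8 and 7 under testosterone in place of 9, and 0 in each androgen contrast and the interaction. Of all tested probes the block called 37% over both androgens, 21.9% under DHT and 22.5% under testosterone, in place of 37.8%, 22.9% and 23.8%. The block ended the calls over both androgens of Rpl31 ILMN_1221124 (limma adjusted p = 0.0545), Rpl23 ILMN_1238227 (0.06), Rpl29 ILMN_2730005 (0.0641) and Rpl21 ILMN_1225201 (0.0604), those of Rpl30 ILMN_2878430 under DHT (0.0701) and testosterone (0.055) and that of Rpsa under testosterone (0.0604), and 8 ribosome assembly genes were lower under testosterone in place of 11. With median scaling the counts were 11 over both androgens, 5 under testosterone and 1 between the androgens in S42L cells (Rpsa). Of all tested probes that scaling called 34.2%, 21.5% and 0.991% in these contrasts. Leaving out each array in turn gave 10 to 18 over both androgens, 4 to 11 under DHT and 4 to 12 under testosterone. Of all tested probes those fits called 33.1% to 40%, 16.7% to 28.2% and 15.9% to 24.9%. Rpl31 ILMN_3152328 and Rpl7l1 ILMN_1249606, uncalled and near 0, changed sign to 0.0599 and -0.0527 with the mean of the gene's probes. Without single arrays the sign changed for Rpl14 (-0.0502 to 0.16), Rpl31 ILMN_3152328 (-0.0393 to 0.01), Rpl7l1 (-0.0338 to 0.0944) and Rps4x (-0.021 to 0.013), all uncalled. The mean of a gene's probes brought Rpl37 (0.50), Rps13 (-0.21) and Rps24 (-0.58) past the threshold by joining probes that differ. Of 452 recomputed probe values over 52 results, without those that leave out an array, 415 kept their direction and their side of the threshold, 31 lost the call, 4 gained one and 2 changed sign. Where no cause is named, the cause was not tested. Probes close to background allow the least firm statements (for Rps15a an interval of -0.75 to 0.05).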

Other observations

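Genes with related symbols that the rule leaves out were Rps3a1, a small subunit gene, at 0.04 ± 0.10 (limma adjusted p = 0.789, S42L minus wild-type over both androgens), and Rpl36al, a copy of Rpl36a, at -0.03 ± 0.07 (adjusted p = 0.758). Rps19bp1, whose product binds Rps19 and the deacetylase Sirt1, was lower in S42L cells at -0.46 ± 0.09 (adjusted p = 0.00108), while Rps19 itself differed by -0.06 ± 0.06 on its brighter probe (adjusted p = 0.517). Both probes of Rps23rg1 were detected on 0 arrays.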
